A study of Mus musculus with 6 samples.

Results

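The small subunit of the cytosolic ribosome, called 40S, was followed here through the mRNAs of 30 genes: 28 proteins whose symbols begin with Rps, the fusion gene Fau and the scaffold gene Rack1. Members were the rows of the deposited table whose symbol was on a fixed list, with pseudogenes left out. All 30 were found among the 19233 genes of the table, and all 30 passed the filter on low values described below. RNA came from polysome fractions, which hold mRNAs that are being read by several ribosomes, of RAW264.7, a macrophage-like line from the mouse. All 6 libraries are titled M2, the alternatively activated state. The 3 treated libraries came from cells given the RNA polymerase I inhibitor BMH-21 at 500 nM for 24 h from 24 h after polarization, and the 3 controls from cells given the solvent DMSO. The protocol text names bone-marrow-derived macrophages with IL-4 or with interferon gamma and LPS, so the polarizing agent of the line itself is not clear from the labels. RNA polymerase I makes the ribosomal RNA precursor, and the libraries compare mRNAs on polysomes with and without its inhibition.

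The 40S subunit binds mRNA, scans for the start codon and holds the decoding centre, where codons meet transfer RNAs. Its proteins sit on the 18S ribosomal RNA in a head, a body and a platform, and are made in the cytoplasm, carried to the nucleolus and assembled there with the RNA. Most vertebrate ribosomal protein mRNAs begin with a C followed by a run of pyrimidines, the 5′ terminal oligopyrimidine (TOP) tract, through which their translation follows growth signals. A polysome value moves with the abundance of an mRNA and with its loading on ribosomes. Unfractionated RNA was not analysed here, so abundance and loading were not separated, and fewer cells and less RNA per cell cannot be told apart either.

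Values are FPKM, so they are corrected for the length of the transcript and the size of the library. Low values implied 21610000 to 24070000 reads per control and 18770000 to 22560000 per treated library. These depths are fitted estimates that rest on GENCODE M21 transcript lengths. Libraries of a group correlated across genes at 0.997 or more. The macrophage label held in the data: all 11 macrophage markers averaged at least 1 FPKM. Markers of other cell types were only partly in the table, with 2 of 5 for fibroblasts, 1 of 3 for B cells, 2 of 3 for neutrophils and 0 of 3 for T cells, so these lists check little. Those present summed to at most 0.492 FPKM per list and library, and the 3 epithelial markers reached 5.02 FPKM, mostly through Krt8. The summed macrophage markers, which the lysozyme gene Lyz2 dominates, went from 10817 to 11216 FPKM in DMSO to 18585 to 19800 FPKM in BMH-21, and the part of this shift in the values below was not tested.

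With BMH-21, 23 of the 30 small-subunit mRNAs were called higher, 2 were called lower, Rpsa and Rps2, and 5 did not pass the test (limma, Benjamini-Hochberg adjusted p below 0.05 over all 9748 tested genes). Among all tested genes 78.3% were called, 19.9% higher and 58.4% lower. The median log2 fold change of the 30 was 0.44, against −0.23 for all tested genes. In 24 of the 30, every BMH-21 library lay above every DMSO library, where 20.3% of all tested genes did so, and in 2 every BMH-21 library lay below, where 59.5% did. All fold changes are of FPKM + 1 on the log2 scale, BMH-21 minus DMSO, with 3 libraries in each group. The members were chosen with earlier results of these libraries known, so the counts describe them and are no independent evidence of a direction.

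The start sites of 8 members are printed because their annotated first bases form a TOP tract, the element that defines this class of mRNA. Of the 30 genes, 26 had a start in the RefSeq promoter table (GRCm38.p6). In 8 of these (30.8%) a C at an annotated start was followed by at least 4 further C or T bases on the gene's strand, against 3.01% of the 27025 genes in the table. Large-subunit genes held such tracts too, in 7 of the 35 that had a start there. Each line gives 10 bases before the start and 20 from it, with the tract in capitals.
Fau (chr19:6057937-6057966, plus strand): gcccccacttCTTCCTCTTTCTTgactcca
Rack1 (chr11:48800350-48800379, plus strand): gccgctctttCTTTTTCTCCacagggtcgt
Rps10 (chr17:27635225-27635254, minus strand): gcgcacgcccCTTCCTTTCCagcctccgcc
Rps6 (chr4:86857348-86857377, minus strand): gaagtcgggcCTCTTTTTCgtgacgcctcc
Rps18 (chr17:33955646-33955675, minus strand): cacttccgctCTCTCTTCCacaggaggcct
Rps15a (chr7:118116128-118116157, minus strand): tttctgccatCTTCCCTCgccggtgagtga
Rps27 (chr3:90213629-90213658, minus strand): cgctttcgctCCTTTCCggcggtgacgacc
Rps21 (chr2:180257369-180257398, plus strand): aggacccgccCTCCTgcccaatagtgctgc

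The tracts run from 13 bases in Fau to 5 in Rps21. For comparison, the annotated starts of Rpsa and Rps2, the 2 members that fell, and the upstream of the 2 annotated starts of the paralog Rps27l hold no such tract at their first base.
Rpsa (chr9:120127756-120127785, plus strand): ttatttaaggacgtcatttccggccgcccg
Rps2 (chr17:24720053-24720082, plus strand): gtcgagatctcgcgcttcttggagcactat
Rps27l (chr9:66946076-66946105, plus strand): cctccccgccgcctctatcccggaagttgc

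Of the 8 members with a tract at an annotated start, 7 were called higher and 1, Rack1, did not pass, with a median log2 fold change of 0.49. Of the 18 without, 13 were called higher, 2 lower and 3 did not pass, with a median of 0.47. The shares over all tested genes were 19.9% higher and 58.4% lower. The start used in these cells was not measured, so a missing tract says only that these letters are not at the annotated base.

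**Figure D1:**
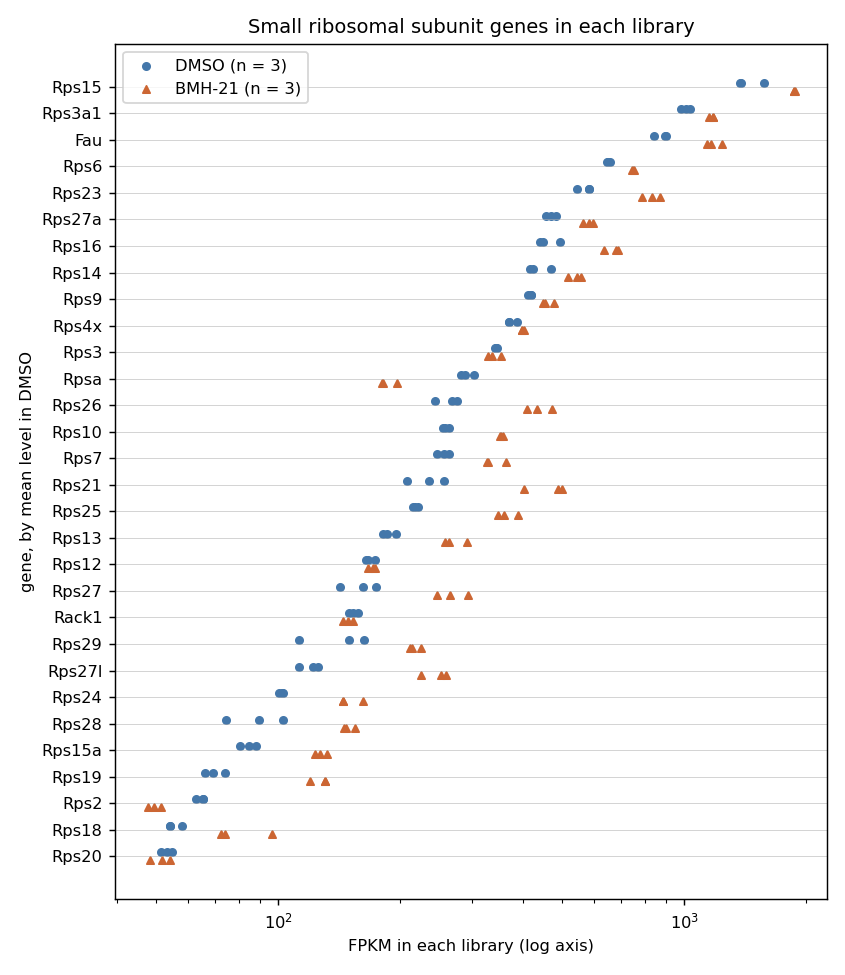
FPKM of each of the 30 small-subunit genes in each library on a log axis, with genes ordered by their mean in DMSO, circles for the 3 DMSO libraries and triangles for the 3 BMH-21 libraries. Levels run from 47.6 FPKM for Rps2 in BMH-21 replicate 1 to 1876 FPKM for Rps15 in BMH-21 replicate 2, and the triangles lie to the right of the circles in 24 genes and to the left in Rpsa and Rps2.

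Levels of the mRNAs differed widely between genes. In the DMSO libraries Rps15, a head protein that joins late in assembly, was the highest at 1441 ± 111 FPKM (SD, n = 3), followed by Rps3a1 at 1008 ± 24.6 FPKM, Fau at 881 ± 31.2 FPKM and Rps6 at 651 ± 6.35 FPKM. The DMSO ranges of neighbours in this order did not overlap down to Rps27a. Below it Rps27a, Rps16, Rps14 and Rps9 overlapped one another in sequence, as did Rps26, Rps10, Rps7, Rps21 and Rps25. The lowest were Rps2 at 64.2 ± 1.47 FPKM, Rps18 at 55.4 ± 2.24 FPKM and Rps20 at 53.1 ± 1.58 FPKM. The summed FPKM of the 30 genes was 10328, 9950.3 and 9774 in the DMSO libraries and 12651, 13230.0 and 13091 in the BMH-21 libraries, or 2.94% ± 0.0626 and 3.50% ± 0.0712 of all FPKM (SD, n = 3).

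Near-identical copies bear on the low end of that order. The table holds 64 rows named as copies of 18 members, and in 2 genes the copies carried nearly all of the signal. Rps2-ps10, a processed pseudogene of Rps2, was at 1252, 1089 and 1139 FPKM in DMSO, while Rps2 itself was near 64. For Rps18, the copies Rps18-ps6 (692 ± 37.8 FPKM), Rps18-ps5 (364 ± 4.77 FPKM) and Rps18-ps3 (37.6 ± 1.76 FPKM) stood beside 55.4 FPKM for the gene. In DMSO the copies held 94.8% of the sum of Rps2 and its copies, 95.2% for Rps18, 22.05% for Rps7, 12.4% for Rps3a1 and 5.10% for Rps19, and at most 1.21% for each other member. How the authors divided reads between a gene and its copies is not given in the sources used here, so the levels of Rps2 and Rps18 are uncertain and their place in the order is not a measure of their mRNA.

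The copies above 10 FPKM in DMSO had the sign of their gene, and some copies at very low levels did not. Rps2-ps10 fell with BMH-21 to 808, 896 and 863 FPKM, or −0.44 ± 0.06 (SE) on the log2 scale (adjusted p = 7.77e-05), beside −0.37 for Rps2. The 3 Rps18 copies rose, by 0.25 for Rps18-ps6, 0.46 for Rps18-ps5 and 0.39 for Rps18-ps3, beside 0.52 for Rps18. Rps7-ps3 rose from 71.9 ± 5.58 to 100.9 ± 8.02 FPKM (SD, n = 3). With the FPKM of copies added to their gene, 23 members were again called higher and 2 lower, and the change of Rps18 became 0.34 and that of Rps2 −0.43.

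**Figure D2:**
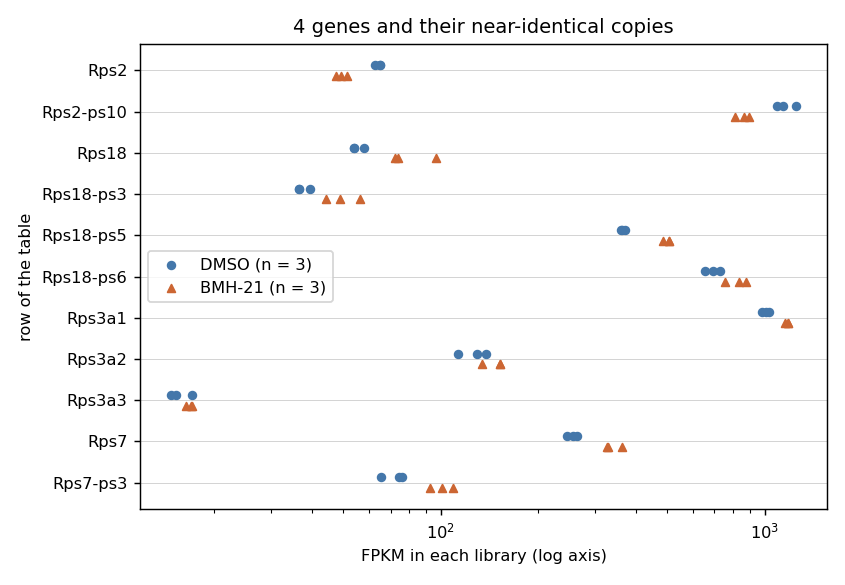
FPKM on a log axis, per library, of Rps2, Rps18, Rps3a1 and Rps7 and of their copies above 10 FPKM, with circles for the 3 DMSO libraries and triangles for the 3 BMH-21 libraries. Rps2-ps10 and the higher Rps18 copies lie far to the right of their own genes, and each copy is shifted to the same side as its gene, with overlap of the groups in Rps3a2 and Rps3a3.

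The head of the subunit was represented by 13 genes, of which 9 were called higher, 0 lower, and 4 did not pass (median log2 fold change 0.46). Over all tested genes 19.9% were called higher and 58.4% lower. Rps19, a head protein needed for 18S rRNA maturation and mutated in Diamond-Blackfan anaemia, was at 74.0, 68.9 and 66.0 FPKM in DMSO and 119.7, 131 and 130.1 FPKM in BMH-21. The groups lay far apart, and the log2 fold change was 0.86 ± 0.05 (SE, limma adjusted p = 2.23e-07). Rps25, which is required by several viral internal ribosome entry sites, went from 214, 221 and 217 FPKM to 359, 390.1 and 349 FPKM, which is a log2 difference of 0.75 ± 0.05 (adjusted p = 2.58e-07 in limma). Here the DMSO libraries were tightly grouped and every BMH-21 library stood well above them.

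Rps28 and Rps29, small proteins of the head, rose from more scattered controls. Rps28 was at 103, 89.5 and 74.5 FPKM in DMSO and 145, 147 and 155 FPKM in BMH-21, or 0.75 ± 0.09 on the log2 scale (adjusted p = 3.76e-05). Rps29 was at 162, 149 and 113 FPKM in DMSO and 214, 224 and 211 FPKM in BMH-21, which is a log2 difference of 0.63 ± 0.11 (adjusted p = 0.000384 in limma). In both genes DMSO replicate 3 was the low control. Rps10, on the beak of the head near the mRNA entry, rose from 259 ± 4.06 to 355 ± 3.35 FPKM (SD, n = 3), by 0.46. Rps16 rose from 461 to 667 FPKM, by 0.53, and Rps18, with the uncertainty given above, from 55.4 to 80.7 FPKM, where BMH-21 replicate 2 stood at 96.4 FPKM and the others at 72.1 and 73.7 FPKM.

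Rps15 and Rps27a rose less. Rps15 was at 1569.6, 1379.9 and 1374 FPKM in DMSO and 1868, 1876 and 1862 FPKM in BMH-21, or 0.38 ± 0.06 on the log2 scale (adjusted p = 0.000135). DMSO replicate 1 stood above the other controls yet below every BMH-21 library. Rps27a, made as a fusion with ubiquitin that is cut after translation, rose from 469.5 ± 13.4 to 580.4 ± 16.4 FPKM, by 0.31. Quantile normalization put Rps15 at −0.034 and ended the call of Rps27a, at 0.06.

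The 4 head genes that did not pass were Rps3, Rps12, Rps20 and Rack1. Rps3, which lines the mRNA entry channel, was at 345, 342 and 344 FPKM in DMSO and 329, 335 and 354 FPKM in BMH-21 (log2 fold change −0.02, limma adjusted p = 0.702). Rack1, a scaffold for signalling proteins on the back of the head, was at 149.7, 153 and 157 FPKM and at 153, 144 and 148 FPKM (−0.04, limma adjusted p = 0.32). In both genes the groups overlapped. Rps12 was at 168 ± 4.86 and 169.9 ± 3.27 FPKM and Rps20 at 53.1 ± 1.58 and 51.4 ± 2.93 FPKM (SD, n = 3), also with overlap. Relative to the median of all tested genes these 4 stood 0.18 to 0.25 higher on the log2 scale, and Rps3, Rps12 and Rps20 were called higher with median-ratio and upper-quartile scaling, as was Rack1. With equal column totals all 4 were called lower, Rps3 at −0.14, Rps12 at −0.10, Rps20 at −0.17 and Rack1 at −0.17, and Rps3 was called lower with quantile normalization too, at −0.12. With the trend on coding length removed, Rps3, Rps12 and Rps20 were called lower.

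**Figure D3:**
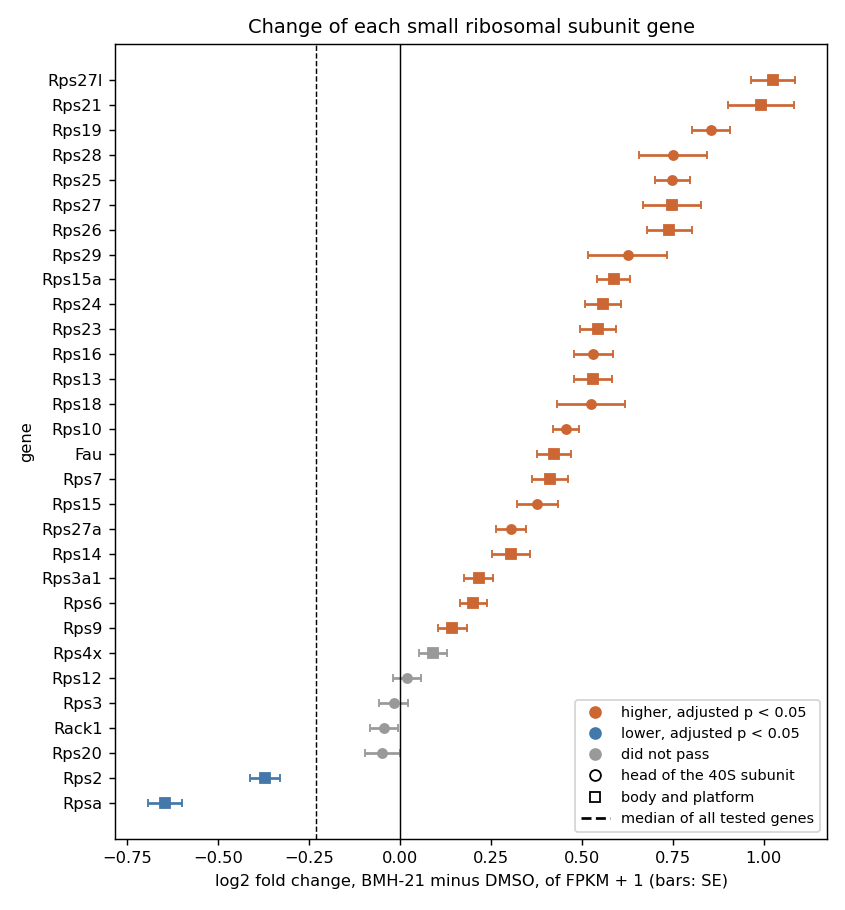
Log2 fold change (BMH-21 minus DMSO, of FPKM + 1) of each member with its standard error, ordered by size, with circles for head proteins and squares for body and platform proteins, orange for called higher, blue for called lower and grey for not passing. The solid line is at 0 and the dashed line at the median of all tested genes, −0.23. Rps27l and Rps21 are at the upper end near 1, and Rpsa and Rps2 are the only members left of the dashed line.

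The body and platform were represented by 17 genes, of which 14 were called higher and 2 lower (median log2 fold change 0.42), where 19.9% and 58.4% of all tested genes were. Rpsa (chr9:120127689-120132369, GRCm38, plus strand), also known as the laminin receptor precursor and placed where the subunit joins body and head, fell the most of all members. It was at 282, 289 and 303 FPKM in DMSO and 196, 179.9 and 181 FPKM in BMH-21, with no overlap, and its log2 fold change was −0.65 ± 0.05 (SE, limma adjusted p = 7.95e-07). It was called lower under each alternative tried, between −0.77 and −0.33. Rps2 (chr17:24718116-24721929, plus strand), a protein of the mRNA entry side, was at 62.5, 65.1 and 65.1 FPKM in DMSO and 47.6, 51.4 and 49.3 FPKM in BMH-21, which is a log2 difference of −0.37 ± 0.04 (adjusted p = 1.66e-05 in limma). Rps2 did not pass under upper-quartile scaling, at −0.06, or median-ratio scaling, at −0.08, so its fall rests on the scaling, whereas that of Rpsa does not under the scalings tried.

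At the other end stood Rps27l (chr9:66946086-66949516, plus strand), a paralog of Rps27 known as a target of p53. It was at 125, 121 and 113 FPKM in DMSO and 225, 252 and 259 FPKM in BMH-21, or 1.03 ± 0.06 on the log2 scale (adjusted p = 1.63e-07). Its paralog Rps27 (chr3:90212522-90213651, minus strand), a zinc finger protein of the platform side, was at 174, 162 and 142 FPKM and at 246, 294 and 265 FPKM, which is a log2 difference of 0.75 ± 0.08 (adjusted p = 1.27e-05 in limma). Both paralogs rose, with no overlap of the groups in either. A ratio of both genes within a library is free of library scaling. Rps27l stood at 0.720, 0.749 and 0.792 of the FPKM of Rps27 in the DMSO libraries and at 0.916, 0.857 and 0.977 in the BMH-21 libraries, so every treated library had the higher ratio. The log2 ratio differed by 0.28 between the groups (exact two-sided permutation test, p = 0.10, the smallest that 3 against 3 libraries can give). By level, 79.8% of the 9748 tested genes had groups that did not overlap, and no such figure was computed for gene ratios.

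Rps21 (chr2:180257377-180258445, plus strand), a small protein that contacts Rpsa in the subunit, was at 255, 235 and 207 FPKM in DMSO and 403, 489 and 499 FPKM in BMH-21, or 0.99 ± 0.09 on the log2 scale (adjusted p = 4.19e-06). The polysomal mRNAs of these neighbours thus moved in opposite directions, Rps21 up and Rpsa down, while their proteins were not measured. Rps26, a platform protein at the mRNA exit, was at 275, 268 and 243 FPKM and at 433, 473 and 409 FPKM, which is a log2 difference of 0.74 ± 0.06 (adjusted p = 2.27e-06 in limma).

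Members of the body with middling rises were Rps15a, from 84.5 to 127 FPKM, Rps24, from 102 to 150.2 FPKM, Rps13, from 187 to 271 FPKM, and Rps23, a protein of the decoding centre, from 569.9 to 831 FPKM, with log2 fold changes of 0.53 to 0.59. Rps7 rose from 255 to 339 FPKM and Fau, which encodes ribosomal protein S30 fused to a ubiquitin-like protein, from 881 to 1181 FPKM, by 0.41 and 0.42. Rps14, a platform protein, rose from 437 ± 28.3 to 539 ± 19.2 FPKM, by 0.30, a call lost with quantile normalization, at 0.08.

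The smallest changes in the body were in Rps6, Rps3a1, Rps9 and Rps4x. Rps6, the substrate of the S6 kinases downstream of mTORC1, was at 649, 658 and 646 FPKM in DMSO and 749, 752 and 743 FPKM in BMH-21, a rise of 0.20 ± 0.04 (SE, limma adjusted p = 0.000567). Rps3a1 went from 1008 ± 24.6 to 1171 ± 15.4 FPKM, by 0.22, and Rps9, at the mRNA entry, from 417 ± 3.79 to 461 ± 15.7 FPKM, by 0.14. These 3 small rises had groups that did not overlap, yet the calls were lost with quantile normalization, at −0.025 for Rps6, −0.018 for Rps3a1 and −0.049 for Rps9, and with equal column totals, at 0.08, 0.09 and 0.02. Rps4x, the X-linked member, was at 370.0, 371 and 388 FPKM in DMSO and 404, 399 and 398 FPKM in BMH-21, which narrowly did not pass (0.09 ± 0.04, limma adjusted p = 0.0524), although the groups did not overlap.

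**Figure D4:**
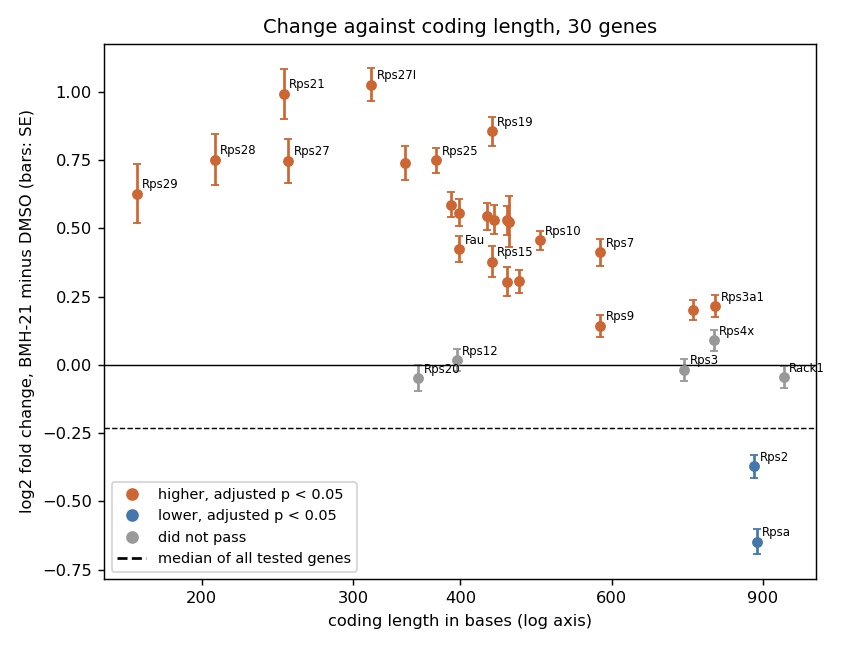
Log2 fold change (BMH-21 minus DMSO, bars SE) of the 30 members against coding length in bases on a log axis, coloured as called higher, called lower or not passing, with the median of all tested genes dashed and 10 crowded points left unlabelled. Short members lie high and long members low, from Rps27l and Rps21 at the upper left to Rpsa and Rps2 at the lower right.

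Changes were larger in shorter members. Coding length, from the GENCODE M21 gene models, ran from 168 bases in Rps29 to 951 in Rack1, with a median of 436.5 against 1278 over the tested genes. Across the 30 members the log2 fold change and the log2 coding length had a Pearson correlation of −0.74 and a Spearman correlation of −0.75. This is a description across genes that share the same 6 libraries. Of the 10 shortest members, with 168 to 396 bases, 8 were called higher (median 0.74), and of the middle 10 all 10 (median 0.53). Of the 10 longest, with 495 to 951 bases, 5 were called higher and 2 lower (median 0.12). These counts stand beside 19.9% of all tested genes called higher and 58.4% lower. Rps12 and Rps20 were the short members that did not pass. With the trend of all genes on coding length removed, 16 members were called higher and 5 lower, where 16.5% and 60.5% of 9221 genes were, and the median of the members was 0.17 against −0.23. Rps19 kept a change of 0.55 and Rps27l of 0.61, while Rps29 was at −0.0033, and the calls of Fau, Rps9, Rps14, Rps15, Rps27a and Rps28 were lost as well. Correlation with the level in DMSO was weak (Pearson −0.12, Spearman −0.23).

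The control libraries differed among themselves in the same members. Of the 10 shortest, DMSO replicate 1 was the highest control in 8 and DMSO replicate 3 the lowest in 8, where over all tested genes replicate 1 was the highest control in 30.1% and replicate 3 the lowest in 33.1%. In BMH-21, replicate 2 was the highest in 17 of the 30 members and replicate 1 the lowest in 17, where each was so in 27.9% of all tested genes. Leaving out any single library left 23 or 24 members called higher and 2 lower. The part of this spread in the results was not tested further.

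A share of the summed FPKM of the 30 genes, with copies left out, is free of library scaling. In 15 members the share was higher in every BMH-21 library than in every DMSO library, in 11 it was lower, and in 4, Rps7, Rps14, Rps15 and Fau, the groups overlapped. Shares sum to a fixed total, so a lower share need not be a fall. Rps3a1, Rps6, Rps9 and Rps27a had lower shares yet were called higher by level. The lower shares included those of the longest members, Rack1, Rpsa, Rps2, Rps3a1, Rps4x, Rps6 and Rps3, and of the short Rps12 and Rps20. By level, 79.8% of all tested genes had groups that did not overlap, and no such background was computed for shares. The 26 of 30 shares without overlap are therefore not read as a result about the members. The share of Rpsa went from 2.91% to 1.43% and that of Rps3 from 3.43% to 2.61%. By level Rpsa was called lower, while Rps3 did not pass, at 344 FPKM in DMSO and 340 FPKM in BMH-21. In the other direction, the share of Rps21 went from 2.32% to 3.57% and that of Rps19 from 0.695% to 0.976%. Rps15 held 14.4% in both groups. For each single share, the exact permutation test over 3 against 3 libraries cannot give a p below 0.10.

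**Figure D5:**
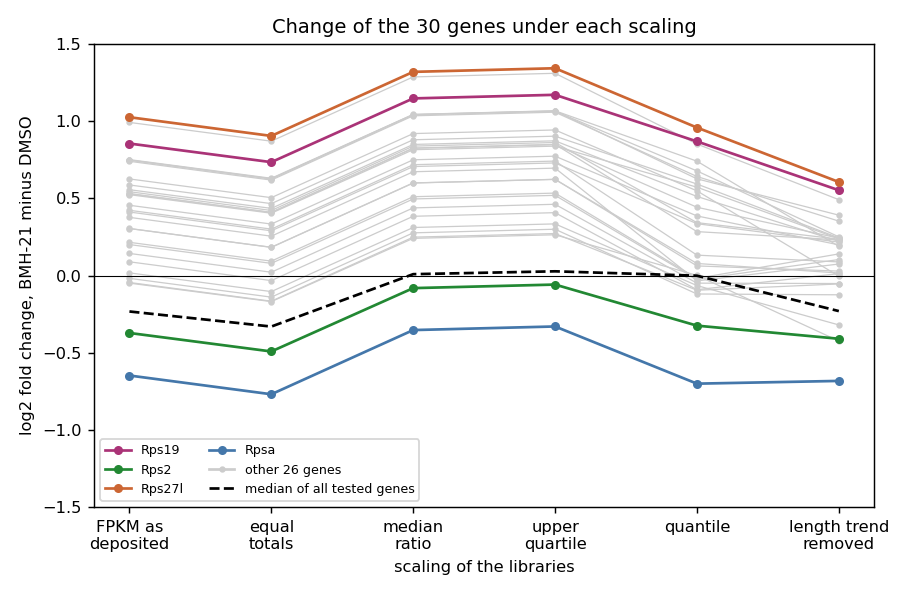
Log2 fold change (BMH-21 minus DMSO) of the 30 members with the FPKM as deposited and under 5 other treatments of the libraries, with a line for each gene, Rps27l, Rps19, Rps2 and Rpsa in colour and the median of all tested genes dashed. Rps27l and Rps19 lie above 0 and Rpsa and Rps2 below it in each column, and most grey lines stay above the dashed line.

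Fold changes rest on how the libraries are scaled. Median-ratio scaling moved the median of all genes from −0.23 to 0.01 and called 28 members higher and 1 lower, where 38.2% and 35.3% of all genes were called. Upper-quartile scaling gave 28 and 1, with 39.7% and 33.8% of all genes. With column totals made equal, 20 members were called higher and 6 lower, with 14.2% and 67.9% of all genes. Quantile normalization called 17 higher and 3 lower, with 35.8% and 36.4% of all genes. Relative to the median of all genes the members' median was 0.67 as deposited, 0.65 to 0.73 with the first 3 of these scalings and 0.31 with quantile normalization.

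The partner lists of the small subunit were read for comparison. Of 48 large-subunit genes, 33 were called higher and 7 lower, where 19.9% and 58.4% of all tested genes were, with a median log2 fold change of 0.26. Those counts became 18 and 14 with the coding-length trend removed, where 16.5% and 60.5% of 9221 genes were called. Quantile normalization gave 24 and 14, with 35.8% and 36.4% of all genes. Equal column totals gave 25 and 12, with 14.2% and 67.9% of all genes, and median-ratio scaling 41 and 4, with 38.2% and 35.3%. The 4 with the smallest p were the paralog Rpl22l1, which fell by 1.77 on the log2 scale, Rpl39 at 1.07, Rpl35a at 0.67 and Rpl35 at 0.62. The summed FPKM of the small-subunit genes was 0.498, 0.497 and 0.499 of that of the large-subunit genes in DMSO and 0.552, 0.554 and 0.558 in BMH-21, so the ratio was higher in every treated library. Copies are left out on both sides. Those of the small-subunit genes held 2489 FPKM in DMSO and 2521 FPKM in BMH-21, and the ratio with copies added was not computed.

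Factors that build the 40S subunit were mostly called lower with the FPKM as deposited. Of 25 assembly factors and dedicated chaperones, 4 were called higher and 19 lower, where 19.9% and 58.4% of all tested genes were. Their median was −0.35 against −0.23 for all tested genes. Nob1, the nuclease that makes the mature end of 18S rRNA, went from 17.9 ± 0.892 to 8.34 ± 0.177 FPKM (SD, n = 3), or −1.02 ± 0.05 (SE) on the log2 scale (adjusted p = 3.68e-08). Pdcd2, a chaperone of Rps2, went from 34.7 ± 0.954 to 14.0 ± 1.29 FPKM, a change of −1.26. The processome components Utp14a and Noc4l changed by −1.01 and −0.98. With median-ratio or upper-quartile scaling, 7 of the 25 were called higher and 12 lower. In that order, these scalings called 38.2% and 39.7% of all genes higher and 35.3% and 33.8% lower. With equal column totals 1 was called higher and 21 lower, where 14.2% and 67.9% of all genes were. With the coding-length trend removed the counts were 0 and 19, where 16.5% and 60.5% of 9221 genes were called. Quantile normalization gave 6 and 13, where 35.8% and 36.4% of all genes were called.

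Other mRNAs of the TOP class were mostly called lower. Of 14 such genes, 2 were called higher and 12 lower, where 19.9% and 58.4% of all tested genes were, with a median of −0.49. With median-ratio or upper-quartile scaling, 2 were called higher and 7 lower. In that order, these scalings called 38.2% and 39.7% of all genes higher and 35.3% and 33.8% lower. Tpt1, the translationally controlled tumour protein, went up by 0.84 on the log2 scale, 289 FPKM in DMSO against 519.9 FPKM in BMH-21. The initiation factor Eif4b fell from 93.8 to 46.7 FPKM, the histone chaperone Nap1l1 from 54.7 to 21.1 FPKM and the RNA-binding protein Hnrnpa1 from 137 to 50.03 FPKM.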

How the data were processed

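Sequencing covered 6 libraries, 3 per group, grouped by their titles. Nothing in the labels ties a replicate to its own culture, and the p-values therefore rest on spread that may be technical. Per the labels, the kit enriched polyadenylated RNA with oligo-dT, although only DMSO replicate 2 has polyA RNA as its molecule and the others total RNA. Trimmomatic 0.38, HISAT2, SAMtools and the build mm10 stand in the submitters' processing notes. The table deposited by the authors holds values taken to be FPKM from the values themselves. Its counting tool and annotation: not given in the sources used here. Low values of genes with a single transcript model were multiplied by its GENCODE M21 length and by a trial depth. The depth kept for each library was the one that gave the most whole reads (within 0.01, up to 20 reads). At that depth 64.5% to 68.3% of low values gave whole reads, too few to recover counts, so no count model was fitted.

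The 9748 genes that reached 1 FPKM in 3 or more libraries were tested on log2(FPKM + 1) with limma 3.58.1 (R 4.3.3, trend on intensity), Benjamini-Hochberg adjusted at 0.05. The code was tested on simulated data. Members, lists and rules were chosen with earlier results of these data known. All 30 members and the 4 genes of smallest p in each other list are described. Coordinates and coding lengths (the longest consensus model) came from GENCODE M21 on GRCm38, the assembly of mm10. Start sites came from RefSeq. Alternatives covered pseudocount, filter, scaling, trend, block, coding length, copies and each library left out. The sum with copies and the alternatives for the TOP class were added after seeing the data.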

Additional observations from a re-analysis of the deposited data

How the results depend on the processing

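Of the values of single members under the alternatives, 468 kept both direction and side of the threshold and 19 changed sign. Counting both signs, a call was gained in 19 and lost in 18. The count of members called higher was 23 or 24 and that called lower 2 without any single library, and the members' median was 0.41 to 0.45. That median became 0.73 under median-ratio and 0.76 under upper-quartile scaling, 0.32 with equal column totals, 0.31 with quantile normalization and 0.17 with the coding-length trend removed. Members called lower numbered 1 with median-ratio and with upper-quartile scaling, 6 with equal column totals and 5 with the coding-length trend removed. In that order, 35.3%, 33.8%, 67.9% and 60.5% of all genes tested were called lower. A filter at 5 FPKM left 5040 genes called of 6191 tested, fewer because fewer genes were tested. Without single libraries 7306 to 7441 genes were called, against 7628, and the Rps27l to Rps27 log2 ratio differed by 0.23 to 0.33. Shares then did not overlap in 26 to 28 members. That count could not fall below the 26 found with all libraries, so it is no check on them. Same-numbered libraries of the groups did not deviate together (correlations −0.112, −0.094 and −0.064, against 0.005 to 0.097 for the other pairings). These correlations cannot show whether same-numbered libraries were cultured or prepared together. With the replicate block, 23 members were called higher and 2 lower, and 7502 genes in all.

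Signs changed as follows. With median-ratio and upper-quartile scaling Rack1 was at 0.25 and 0.27, Rps20 at 0.24 and 0.26 and Rps3 at 0.28 and 0.30. With quantile normalization Rps12 was at −0.064, Rps15 at −0.034, Rps20 at 0.0013, Rps3a1 at −0.018, Rps4x at −0.091, Rps6 at −0.025 and Rps9 at −0.049. With equal column totals Rps12 was at −0.10 and Rps4x at −0.032. With the coding-length trend removed Rps12 was at −0.32, Rps29 at −0.0033 and Rps9 at −0.051. Without single libraries Rps3 ran from −0.048 to 0.0041, the latter without BMH-21 replicate 1. Beyond the scaling itself, the cause was not tested.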
